A study of Bos taurus with 129 samples.

Results

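The 10 genes described here encode the interleukin-1 and interleukin-18 ligands, their antagonist, receptors and decoy, and 2 core parts of the inflammasome: IL1A, IL1B, IL18, IL1RN, IL1R1, IL1R2, IL18R1, IL18RAP, NLRP3 and CASP1. They were chosen by symbol from the 32395 genes of the count table. Each matched 1 row, and all 10 were among the 18937 genes that passed the filter on low counts. Whole blood RNA-seq libraries came from 26 commercial crossbred steers at high risk of bovine respiratory disease (BRD), sampled at days 0, 13, 28, 45 and 60, which gave 59 libraries of healthy and 70 of BRD animals, since 1 healthy AAC animal had no day 13 library. The 12 healthy steers were never diagnosed with or treated for clinical BRD over the study, and the 14 BRD steers were. The labels give no date of diagnosis, so a day 0 sample of a BRD animal may precede its disease. The INR steers (4 healthy, 7 BRD) received inorganic sulfate sources of copper, cobalt, manganese and zinc. The AAC steers (4 healthy, 4 BRD) received amino acid-complexed sources. The COMBO steers (4 healthy, 3 BRD) received the complexed sources plus an oral trace mineral drench before shipment, at enrollment and with any treatment for morbidity. All steers were vaccinated against respiratory viruses and dewormed with doramectin on day 0. They were revaccinated between the day 13 and day 28 samples, so revaccination and day cannot be told apart across that interval. At day 0, the COMBO healthy steers came from pen 5 and the COMBO BRD steers from pen 6, so day 0 pen and label cannot be told apart within COMBO. Within INR, day 0 pens 3 and 4 gave steers of both labels and pen 7 gave BRD steers alone. Pen and label were thus partly tied within INR as well. Both AAC pens gave steers of both labels. Steers were later rotated between pens. Libraries were numbered in day order, so day cannot be told apart from library order.

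Interleukin-1 alpha and beta signal through IL1R1, and IL1RN, the interleukin-1 receptor antagonist, occupies that receptor without signalling. IL1R2 is a decoy receptor that binds interleukin-1 without passing the signal on. Interleukin-18 signals through IL18R1 together with its accessory chain IL18RAP. The sensor NLRP3 assembles the inflammasome that activates caspase-1 (CASP1), which cleaves the precursors of interleukin-1 beta and interleukin-18. In blood, neutrophils and monocytes carry much of this system, and lymphocytes respond to interleukin-18.

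Total counts ranged from 31613545 to 61692136 per library, with a median of 44268685. Levels below are in CPM, the count of a gene relative to the TMM-scaled library size. They are not corrected for transcript length, so they are compared between samples and never between genes. In bulk blood, fewer cells of a type and less RNA per cell cannot be told apart. IL1A was the sparsest of the 10 genes, with a median of 28 counts per library and 5 libraries under 10 counts. IL1B had a median of 6008 counts and IL1RN of 5741, IL1R1 of 3210, NLRP3 of 1526, IL18 of 709, IL18RAP of 587, CASP1 of 496, IL18R1 of 425 and IL1R2 of 216. Of the 10 genes, IL18R1 alone was at 0 counts in any library, which occurred in 3 BRD libraries of day 60. Every library was most like another library of the same animal over 500 genes.

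IL1R2, the decoy receptor, had the largest changes over time of the 10 genes in both healthy and BRD cattle, and it was highest at arrival. At day 0, the healthy steers ranged from 1.81 to 109.5 CPM with a median of 7.13 CPM. The BRD steers ranged from 3.10 to 102.3 CPM at day 0 with a median of 6.71 CPM. By day 13 the highest healthy animal was at 11.7 CPM and the highest BRD animal at 14.6 CPM, with medians of 4.17 and 4.14 CPM. At day 28 the healthy range was 2.23 to 8.50 CPM and the BRD range 1.58 to 12.2 CPM, with medians of 3.62 and 3.99 CPM. The high values of day 0 were not reached later, while the low ends of the ranges overlapped. At day 0, 11 of 26 steers exceeded 10 CPM, against 4 at day 13, 2 at day 28, 3 at day 45 and 3 at day 60, and 18 of 26 steers had their highest sampled value at day 0. The spread between animals at arrival was wide in both labels: healthy COMBO animal 6 (109.5 CPM) and BRD INR animal 40 (102.3 CPM) stood above the next, healthy INR animal 7 (38.9 CPM) and BRD AAC animal 21 (34.7 CPM). The day 0 value exceeded the later one in 21 of 25 animals at day 13, 23 of 26 at day 28, 21 of 26 at day 45 and 19 of 26 at day 60.

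**Figure D1:**
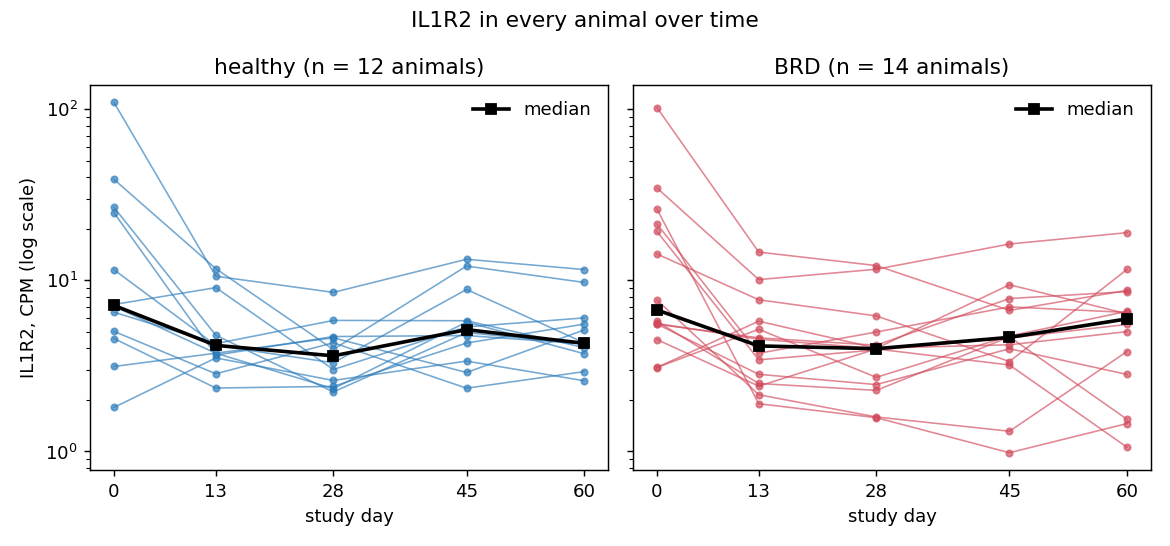
IL1R2 in CPM on a log axis against study day, with 1 line per animal (healthy left, n = 12; BRD right, n = 14) and black squares for the medians. The widest spread is at day 0, up to 109.5 CPM in healthy and 102.3 CPM in BRD cattle, and medians at day 28 are 3.62 and 3.99 CPM.

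Changes from day 0 were tested with edgeR's quasi-likelihood test with a term for each animal, and p-values were adjusted over all 18937 genes by the Benjamini-Hochberg method (false discovery rate, FDR, called below 0.10). IL1R2 fell in healthy cattle at all 4 later days, with log2 fold changes of -1.42 at day 13 (SE 0.32, adjusted p = 0.00200, 2.67-fold lower), -1.70 at day 28 (SE 0.32, adjusted p = 5.16e-05), -1.22 at day 45 (SE 0.31, adjusted p = 0.00667) and -1.37 at day 60 (SE 0.31, adjusted p = 0.00170). In BRD cattle it also fell, with log2 fold changes of -1.62 at day 13 (SE 0.29, adjusted p = 3.14e-05, 3.06-fold lower), -1.75 at day 28 (SE 0.29, adjusted p = 4.40e-06), -1.41 at day 45 (SE 0.30, adjusted p = 0.000246) and -1.34 at day 60 (SE 0.29, adjusted p = 0.000480). The median log2 change within animals was smaller than the fitted estimate at each day. In healthy cattle it was -0.95, -1.41, -0.41 and -0.84 at days 13, 28, 45 and 60. In BRD cattle it was -1.08, -1.26, -0.79 and -0.98 at the same days. The 4 comparisons within a label share their day 0 libraries. Leaving out any 1 animal kept each of these 8 calls, with estimates of -1.87 to -0.95 in healthy and -1.89 to -1.03 in BRD cattle. The fit without the animal term was one of day, label and supplement means. It counted each supplement equally, whereas the main fit averaged over animals, so pairing and weighting both differ. In that fit of means, the BRD calls at days 45 (-1.02, adjusted p = 0.161) and 60 (-0.84, adjusted p = 0.298) were lost.

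The level of IL1R2 at arrival moved with monocyte markers. Over the 26 steers at day 0, log2 IL1R2 and the log2 summed CPM of 6 monocyte genes (CD14, CSF1R, CD163, VCAN, MS4A7 and FCN1) had a Pearson r of 0.880 (permutation p = 1e-05, the smallest that 100000 resamples can give; adjusted p = 0.00025 over 50 relations) and a Spearman rho of 0.902 (permutation p = 1e-05, likewise the smallest). The relation was r = 0.939 among healthy and 0.873 among BRD animals, and 0.865 with the 2 most extreme animals left out. The monocyte sum itself ranged from 924.7 to 4104 CPM at day 0 (median 1772 CPM) and from 592.1 to 1822 CPM at day 28 (median 888.5 CPM). Of its 6 genes, CD14, CD163, FCN1 and VCAN fell from day 0 to day 28 in both labels, MS4A7 rose, and CSF1R was not called. A sum of 8 neutrophil genes had a median of 1806 CPM at day 0 and 1441 CPM at day 28. Of the 8, CXCR1 (-0.68 in healthy and -0.93 in BRD cattle), S100A8 (-0.58 and -1.14) and S100A9 (-0.56 and -1.21) fell from day 0 to day 28 in both labels, and MMP9 fell in BRD cattle (-0.96). The neutrophil sum and IL1R2 at day 0 had r = 0.485 (permutation p = 0.0111, adjusted p = 0.0556). This r was 0.726 in healthy and 0.476 in BRD animals, and 0.392 with the 2 most extreme left out. Of 7 genes that glucocorticoids induce, 6 (DUSP1, FKBP5, KLF9, PER1, TSC22D3 and ZBTB16) fell from day 0 to day 28 in both labels. The list's relation to IL1R2 at day 0 was r = 0.631 (permutation p = 0.00051, adjusted p = 0.00425). It was uneven between labels, with r = 0.811 in healthy and 0.398 in BRD animals, and 0.494 with the 2 most extreme left out. In both labels the erythroid genes ALAS2 and HBB, the platelet genes PF4 and TUBB1 and the basophil gene FCER1A rose over the same interval, in which the 6 NK and cytotoxic genes did not move together. Of these, NCR1 and PRF1 fell in both labels and NKG7 in healthy cattle, GZMA rose in BRD cattle (0.60, adjusted p = 0.0170), and the list's median was -0.25 in healthy and 0.07 in BRD cattle. Genes not called lower against day 0 also had relations at day 0. NLRP3 and the monocyte sum had r = 0.539 (permutation p = 0.00437, adjusted p = 0.0273), and 0.36 with the 2 most extreme animals left out. IL18 and the neutrophil sum had r = 0.551 (permutation p = 0.00491, adjusted p = 0.0273), and 0.282 without 2. IL18R1 and the NK and cytotoxic sum had r = -0.473 (permutation p = 0.0143, adjusted p = 0.0651). The part of these cells and genes in the change of IL1R2, IL1RN, IL1R1 and IL18RAP was not tested.

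IL1RN, the receptor antagonist, was also highest at arrival. In healthy steers it ranged from 97.37 to 259.1 CPM at day 0 (median 155 CPM) and from 86.24 to 170.2 CPM at day 28 (median 94 CPM). In BRD steers it ranged from 76.57 to 300.3 CPM at day 0 (median 161.8 CPM) and from 64.98 to 180.5 CPM at day 28 (median 109.8 CPM). The day 0 and day 28 ranges overlapped, yet 24 of 26 animals were lower at day 28 than at day 0, and 25 of 26 were lower at day 60. In BRD cattle IL1RN fell at all 4 later days, with log2 fold changes of -0.54 at day 13 (SE 0.11, adjusted p = 0.000395), -0.68 at day 28 (SE 0.11, adjusted p = 5.62e-06), -0.42 at day 45 (SE 0.12, adjusted p = 0.00541) and -0.60 at day 60 (SE 0.11, adjusted p = 7.02e-05). In healthy cattle it fell at day 28 (-0.56, SE 0.12, adjusted p = 0.000674) and at day 60 (-0.39, SE 0.12, adjusted p = 0.0299), whereas the estimates at day 13 (-0.30, adjusted p = 0.139) and day 45 (-0.17, adjusted p = 0.519) did not pass. In the fit of means without the animal term, the calls of BRD day 45 (adjusted p = 0.125) and healthy day 60 (adjusted p = 0.213) were lost. IL1RN and the monocyte sum at day 0 had r = 0.715 (permutation p = 5e-05, adjusted p = 0.000625) and rho = 0.709 (permutation p = 0.00012), with r = 0.865 in healthy and 0.647 in BRD animals and 0.597 with the 2 most extreme animals left out. With the neutrophil sum r was 0.696 (permutation p = 7e-05, adjusted p = 0.0007) and rho 0.631 (permutation p = 0.00063), with r = 0.720 in healthy and 0.695 in BRD animals and 0.676 with the 2 most extreme left out.

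IL1R1, the signalling receptor, was called lower at day 28 in both labels and at no other day. Healthy steers ranged from 37.2 to 145.1 CPM at day 0 (median 94.1 CPM) and from 44.1 to 112.6 CPM at day 28 (median 68.38 CPM). BRD steers ranged from 22.95 to 120.7 CPM at day 0 (median 82 CPM) and from 32.9 to 115.26 CPM at day 28 (median 54.3 CPM). IL1R1 fell at day 28 in healthy (log2 fold change -0.47, SE 0.17, adjusted p = 0.0427) and in BRD cattle (-0.47, SE 0.16, adjusted p = 0.0252), and 19 of 26 animals were lower than at day 0. The healthy call was lost when animal 6 or animal 49 was left out, where the estimates over all single omissions ran from -0.54 to -0.42. In the fit of means without the animal term, both calls were lost (healthy -0.50, adjusted p = 0.167, and BRD -0.35, adjusted p = 0.427). At day 45 the estimates were -0.11 in healthy (adjusted p = 0.806) and -0.06 in BRD cattle (adjusted p = 0.848). Its relation to the monocyte sum at day 0 was r = 0.729 (permutation p = 4e-05, adjusted p = 0.000625) and rho = 0.677 (permutation p = 0.00021), with r = 0.739 in healthy and 0.776 in BRD animals and 0.702 with the 2 most extreme left out.

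**Figure D2:**
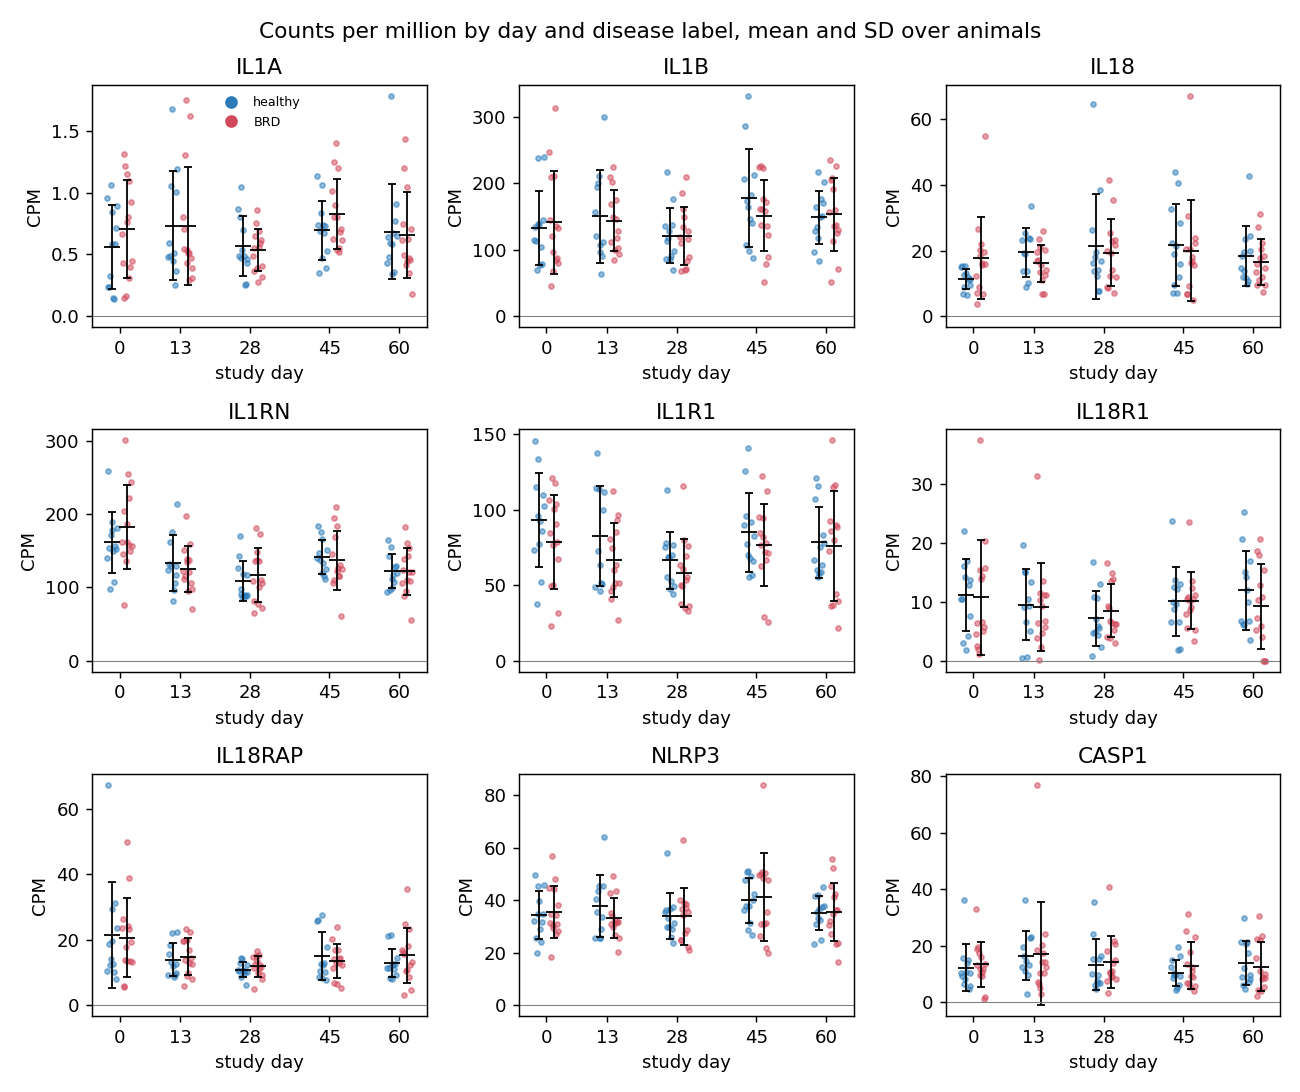
CPM against study day for the other 9 genes, with 1 point per library (healthy blue, BRD red), horizontal bars for the means and vertical bars for SD over 11 to 14 animals. IL1RN is highest at day 0 (means 161.3 and 182.5 CPM) and lowest at day 28 (108.8 and 116.7 CPM), and the healthy and BRD points overlap in every panel.

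IL18 moved the other way, and only the healthy group passed the test. At day 0 the healthy steers lay between 6.41 and 15 CPM (median 11.65 CPM), and the BRD steers between 3.82 and 54.9 CPM (median 16.1 CPM). Later medians in healthy steers were 19.3 CPM at day 13, 16.5 CPM at day 28, 20.2 CPM at day 45 and 16.6 CPM at day 60, with highest values of 33.5, 64.5, 43.9 and 42.7 CPM. Later medians in BRD steers were 16.2, 19.5, 17.5 and 15.2 CPM at the same days. The healthy group had a narrow range at day 0, which lay within that of the BRD group. In healthy cattle IL18 rose by 0.76 at day 13 (SE 0.26, adjusted p = 0.0575), 0.80 at day 28 (SE 0.26, adjusted p = 0.0247), 0.85 at day 45 (SE 0.25, adjusted p = 0.0264) and 0.65 at day 60 (SE 0.25, adjusted p = 0.0966). It was higher than at day 0 in 9 of 11, 10 of 12, 12 of 12 and 9 of 12 healthy animals. In BRD cattle the estimates were 0.04, 0.15, 0.12 and 0.01 (adjusted p = 0.942, 0.744, 0.797 and 0.981). The difference between the labels' changes was itself tested and did not pass at any day: it was -0.72 at day 13 (95% interval -1.41 to -0.03, adjusted p = 1), -0.65 at day 28 (adjusted p = 0.951), -0.73 at day 45 (95% interval -1.41 to -0.06, adjusted p = 1) and -0.64 at day 60 (adjusted p = 1). The day 28 call was lost without animal 7 (estimate 0.48), the day 13 call without animal 30, 50 or 57, and the day 60 call without any of 6 animals (30, 34, 46, 49, 50 and 57). The highest BRD animal at day 0, INR animal 43, was at 54.9 CPM and later between 9.64 and 23.7 CPM. In the fit of means without the animal term, none of the 4 healthy calls passed (adjusted p = 0.133 to 0.302).

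IL18RAP, the accessory chain of the interleukin-18 receptor, was highest at arrival, as IL1R2 was. Healthy steers ranged from 8.12 to 67.2 CPM at day 0 (median 16.38 CPM) and from 6.24 to 14.6 CPM at day 28 (median 10.7 CPM). BRD steers ranged from 5.70 to 49.8 CPM at day 0 (median 18.5 CPM) and from 4.94 to 16.6 CPM at day 28 (median 11.98 CPM). No animal reached the upper part of the day 0 range at day 28, and 20 of 26 were lower than at day 0. In healthy cattle IL18RAP fell at day 13 (-0.55, SE 0.21, adjusted p = 0.0943), day 28 (-0.83, SE 0.20, adjusted p = 0.00244) and day 60 (-0.65, SE 0.20, adjusted p = 0.0276), with -0.45 at day 45 (adjusted p = 0.204). In BRD cattle it fell at day 28 (-0.72, SE 0.19, adjusted p = 0.00349), day 45 (-0.58, SE 0.19, adjusted p = 0.0208) and day 60 (-0.48, SE 0.19, adjusted p = 0.0710), with -0.40 at day 13 (adjusted p = 0.148). The day 13 call in healthy cattle was lost without any 1 of 11 animals, the healthy day 60 call without animal 6 or 42, and the BRD day 60 call without animal 16, 40 or 43. The BRD day 60 call was also lost without the single library of animal 40 at day 60, the library with the lowest RNA integrity per the study's methods, and with supplement-by-day terms (-0.46, adjusted p = 0.110). In the fit of means without the animal term, 5 of the 6 IL18RAP calls were lost (adjusted p = 0.134 to 0.645), and healthy day 28 passed (-0.88, adjusted p = 0.0353). IL18RAP at day 0 had its closest relation to the sum of the 7 glucocorticoid-induced genes (r = 0.789, permutation p = 1e-05, adjusted p = 0.00025; rho = 0.756, permutation p = 7e-05), with r = 0.828 in healthy and 0.782 in BRD animals and 0.738 with the 2 most extreme left out. With the monocyte sum r was 0.598 (permutation p = 0.00132, adjusted p = 0.00943), with 0.834 in healthy and 0.465 in BRD animals. With a sum of 6 NK and cytotoxic genes r was 0.152 (permutation p = 0.460).

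**Figure D3:**
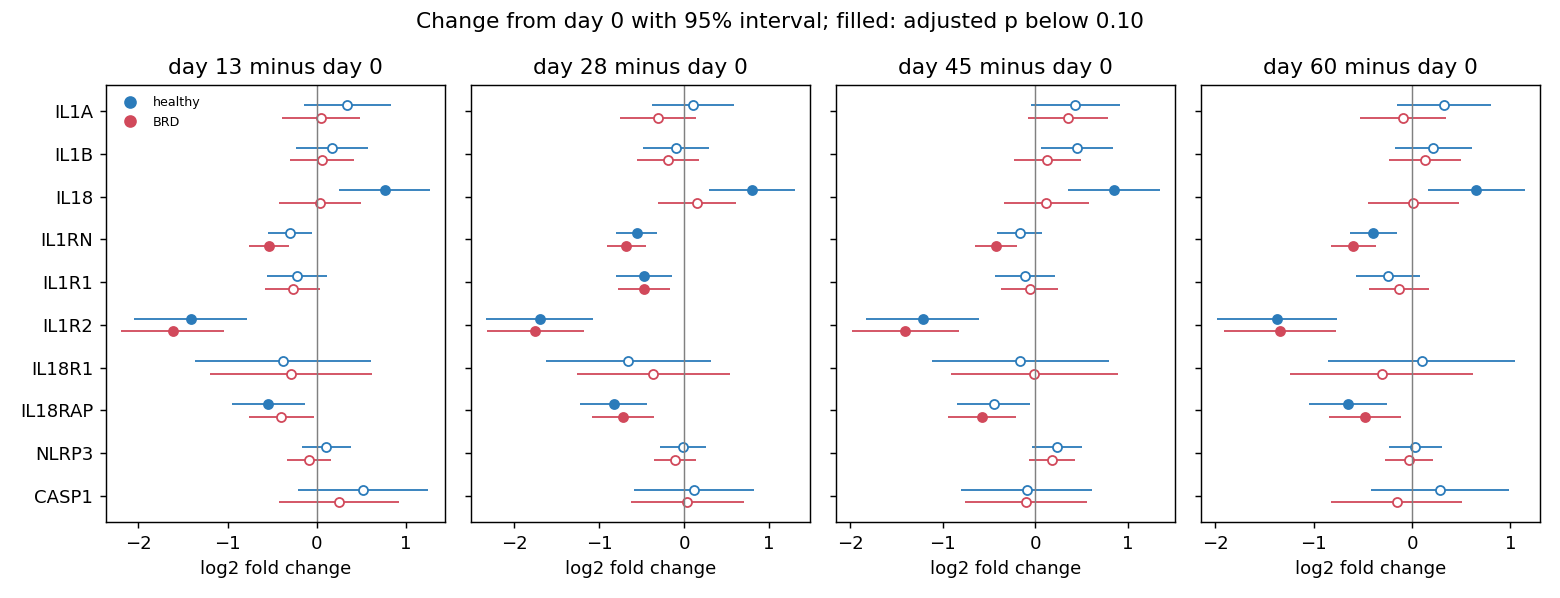
Log2 fold change from day 0 (horizontal axis) of each of the 10 genes at days 13, 28, 45 and 60, healthy blue and BRD red, with 95% intervals; filled points passed at an adjusted p below 0.10. IL1R2 lies at -1.75 to -1.22 in all panels, and IL18 is filled in healthy cattle alone, where the difference between labels did not pass the test.

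Counted over the 10 genes, healthy cattle had 1 gene higher (IL18) at each of the 4 later days, against 6.11%, 10.76%, 4.36% and 5.83% of all genes called higher at days 13, 28, 45 and 60. They had 2, 4, 1 and 3 genes lower, against 4.84%, 10.22%, 4.19% and 5.81% of all genes. By edgeR, BRD cattle had 0 genes higher at each day, against 9.08%, 9.78%, 11.77% and 9.45% of all genes. They had 2, 4, 3 and 3 genes lower, against 8.35%, 10.27%, 10.74% and 10.17% of all genes. In either direction, 3, 4, 3 and 3 of the 10 had an unadjusted p below 0.05, and DESeq2 called 2, 4, 3 and 3. The medians of the 10 estimates in BRD cattle were -0.18, -0.33, -0.04 and -0.14, against medians over all tested genes within 0.01 of 0. In healthy cattle they were -0.06, -0.28, -0.10 and 0.07. The counts of genes higher in healthy cattle rest on IL18 alone, and those of genes lower mostly on IL1R2, IL1RN and IL18RAP. The ligand genes IL1A and IL1B were not called against day 0 in either label at any day.

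IL1A and IL1B had no call against day 0, and both rose between days 28 and 45. IL1A lay between 0.25 and 1.05 CPM at day 28 (median 0.51 CPM, n = 26) and between 0.35 and 1.41 CPM at day 45 (median 0.72 CPM). IL1B lay between 68.42 and 216.7 CPM at day 28 (median 116.9 CPM) and between 51.7 and 331.7 CPM at day 45 (median 161.1 CPM). The ranges overlapped, and 19 of 26 animals were higher at day 45 for IL1A and 20 of 26 for IL1B. Over all cattle, IL1A rose by 0.50 (SE 0.16, adjusted p = 0.0210) and IL1B by 0.43 (SE 0.14, adjusted p = 0.0154) on the log2 scale. IL1RN rose by 0.32 (SE 0.08, adjusted p = 0.00276) and IL1R1 by 0.39 (SE 0.11, adjusted p = 0.00838), with 21 of 26 animals higher for IL1RN and 22 of 26 for IL1R1. NLRP3, the inflammasome sensor, rose from a median of 33.8 CPM (20.9 to 62.9 CPM) at day 28 to 39 CPM (19.9 to 83.8 CPM) at day 45, by 0.26 (SE 0.09, adjusted p = 0.0300), with 20 of 26 animals higher. The 5 genes called higher stood against 13.65% of all genes called higher and 14.6% called lower in this interval, and 0 of the 10 genes were called lower. All 5 kept their call without any 1 animal. IL1R2 (0.41, adjusted p = 0.149), IL18RAP (0.26, adjusted p = 0.171) and IL18R1 (0.42, adjusted p = 0.400) had estimates of the same sign that did not pass, and IL18 was at 0.01 (adjusted p = 0.984). CASP1 had the only negative estimate (-0.18, adjusted p = 0.660), with 15 of 26 animals lower. The median over the 10 genes was 0.35, against -0.00024 over all tested genes.

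**Figure D4:**
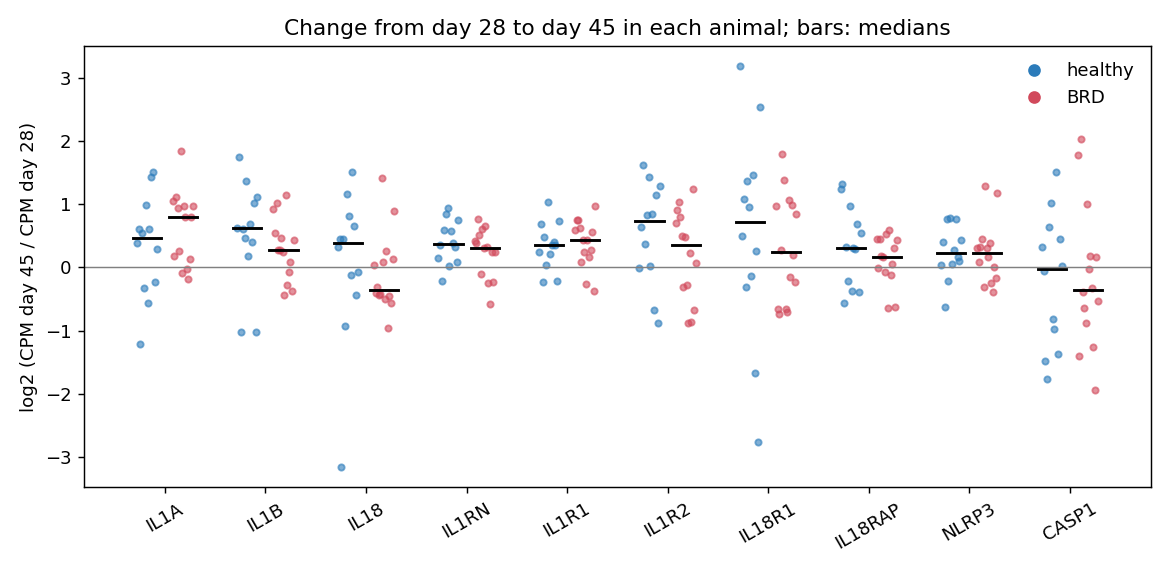
Log2 ratio of CPM at day 45 to CPM at day 28 in each of 26 animals for the 10 genes, healthy blue and BRD red, with bars for the medians. Of the 26 animals, 22 are above 0 for IL1R1 and 20 each for IL1B and NLRP3, while IL18 is split evenly, with 13 above 0.

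In this interval the neutrophil gene CXCR1 rose by 0.65 (adjusted p = 0.000228), the other 7 neutrophil genes tested were not called, and none of the 6 monocyte genes was called. Of the glucocorticoid-induced genes, DUSP1, SGK1 and TSC22D3 rose. The eosinophil gene IL5RA and the cytotoxic gene PRF1 rose, and the platelet genes PF4, TUBB1 and GP9 fell. The part of these in the rise of the 5 genes was not tested. From day 13 to day 28, 0 of the 10 genes were called higher (1.01% of all genes) and 0 lower (0.607%) by edgeR, with 2 of 10 at an unadjusted p below 0.05 and 0 called by DESeq2. From day 45 to day 60, 0 were called higher (4.56%) and 0 lower (3.11%), again with 2 of 10 at an unadjusted p below 0.05 and 0 called by DESeq2. The rise at day 45 was thus not followed by a called fall, although IL1RN (-0.20, adjusted p = 0.160) and NLRP3 (-0.20, adjusted p = 0.198) had negative estimates.

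NLRP3 was not called against day 0 at any later day. Its day 0 range was 19.97 to 49.45 CPM in healthy steers (median 33.3 CPM) and 18.25 to 56.89 CPM in BRD steers (median 32.8 CPM). Its estimates against day 0 ran from -0.01 to 0.23 in healthy and from -0.10 to 0.18 in BRD cattle, with adjusted p of 0.358 or more.

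CASP1 and IL18R1 varied more within animals than the other 8 genes. Of the variance of log2 CPM over all libraries, 24.8% lay between animals for CASP1 and 21.6% for IL18R1, and 73.1% and 76.1% was left within animals after day was taken out. The median over all tested genes was 42.1% between animals and 48.5% left, and IL1R2 (48.6% and 31.6%) and IL1R1 (56.4% and 37.7%) had smaller remainders. Only 6.84% of genes had a larger remainder than CASP1 and 3.82% a larger one than IL18R1. Change over time and measurement error were not separated here. In BRD COMBO animal 16, CASP1 was at 13.34, 76.9, 18.1, 6.87 and 22.6 CPM at days 0, 13, 28, 45 and 60. In BRD INR animal 27, IL18R1 was at 37.34, 2.27, 13.5, 8.59 and 20.6 CPM at the same days. Neither gene was called in any comparison of this text, and the SE of the changes from day 0 was 0.34 to 0.37 for CASP1 and 0.46 to 0.50 for IL18R1, against 0.11 to 0.13 for IL1RN.

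In the RefSeq annotation of ARS-UCD2.0, IL18R1 overlaps IL1RL1, the interleukin-33 receptor gene, and CASP1 lies next to CASP4, a caspase of the noncanonical inflammasome. Gene counts here were derived from transcript coverage, so reads of overlapping genes may be divided between them. IL18R1 and IL1RL1 had r = -0.35 over all libraries, a description over libraries of which up to 5 share an animal. IL18R1 was at 0 counts in 3 libraries, those of BRD animals 40, 43 and 54 at day 60. IL1RL1 had 375, 319 and 699 counts in them, against a median of 328 counts over all libraries. The values of animals 40 and 43 were thus near that median, and that of animal 54 was above it. The library of animal 40 at day 60 had the lowest RNA integrity per the study's methods. With the counts of IL18R1 and IL1RL1 added together, an alternative chosen after the data were seen, 61.01% of the variance lay between animals and 25.8% was left, while IL1RL1 alone left 55.6%. The summed counts fell at all 4 later days in both labels. In healthy cattle the log2 fold changes were -0.53 (SE 0.14, adjusted p = 0.0104), -0.75 (adjusted p = 4.12e-05), -0.45 (adjusted p = 0.0345) and -0.42 (adjusted p = 0.0399) at days 13, 28, 45 and 60. In BRD cattle they were -0.42 (SE 0.13, adjusted p = 0.0194), -0.61 (adjusted p = 0.000246), -0.49 (adjusted p = 0.00391) and -0.42 (adjusted p = 0.0171). By edgeR IL18R1 alone was called in 0 of those 8 comparisons, at an unadjusted p below 0.05 in 0, with estimates of -0.65 to 0.10. IL1RL1 alone had negative estimates in all 8, from -1.08 to -0.43. It was called lower in BRD cattle at day 28 (-0.97, adjusted p = 0.0685) and in healthy cattle at day 60 (-1.08, adjusted p = 0.0881). The part of each gene in the fall of the sum was not tested. CASP1 and CASP4 had r of about 0 (-5.00e-05), and the sum, of which CASP4 was by far the larger part (median 8534 counts against 496), fell in BRD cattle at day 28 (-0.52, SE 0.15, adjusted p = 0.00823) and at day 60 (-0.43, adjusted p = 0.0341) and rose from day 28 to day 45 (0.30, adjusted p = 0.0337). For the sum of CASP1 and CASP4, 61.26% of the variance was left within animals after day was taken out, against 61.23% for CASP4 alone. Whether reads were divided between these neighbours was not tested.

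**Figure D5:**
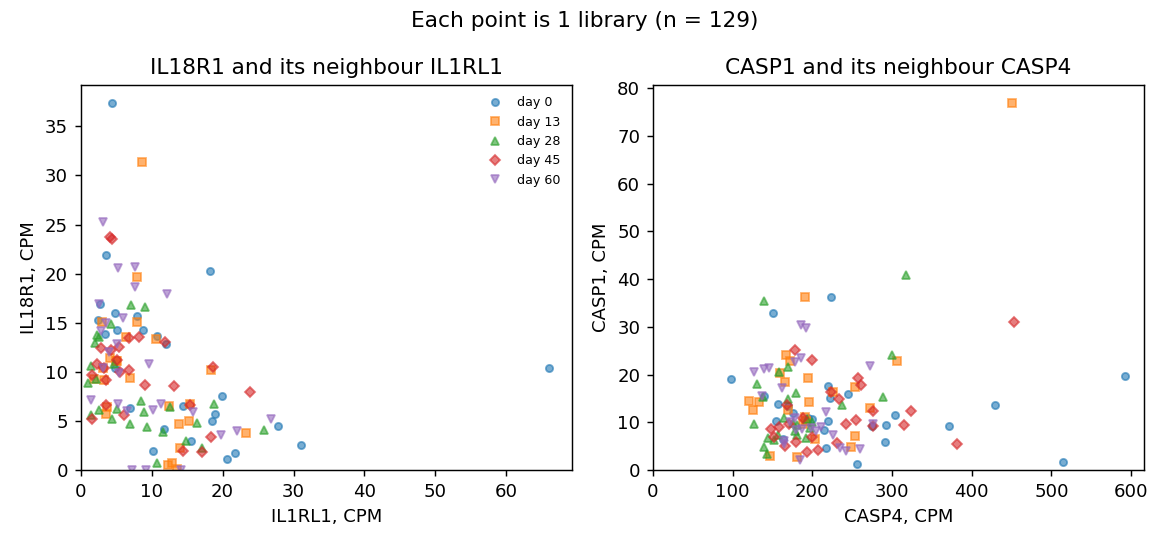
CPM of IL18R1 against IL1RL1 (left) and of CASP1 against CASP4 (right), with 1 point per library and symbols for study day. The left panel has few libraries high in both genes (r = -0.35 on the log2 scale), and 3 libraries of day 60 are at 0 for IL18R1; the right panel has no trend.

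BRD and healthy steers were then compared at each day, as a mean over the 3 supplements. At day 0, IL18 had the largest positive estimate, 0.57 (95% interval -0.04 to 1.18, adjusted p = 0.744), and IL1R2 the largest negative one, -0.61 (-1.44 to 0.21, adjusted p = 0.844). IL1RN was at 0.20 (-0.11 to 0.51) and IL1R1 at -0.36 (-0.78 to 0.05). At no day was any of the 10 genes called by edgeR, DESeq2 or limma-voom, and 0 of the 50 gene-by-day estimates had an unadjusted p below 0.05 in edgeR. Among all genes, 0.0158% were called at day 0, 0% at day 13, 0.00528% at day 28, 0% at day 45 and 0.00528% at day 60. The intervals bound the size of what could have been missed: 40 of the 50 lay within a log2 difference of 1 on either side, among them every interval of IL1B, IL1RN, IL1R1 and NLRP3, while those of IL1R2 reached from -1.44 to 1.11. In simulated counts at this design, a log2 difference of 1 between BRD and healthy cattle at day 0 was called for 165 of 200 changed genes, and a difference of 0.5 for 5 of 200, among 4735 genes. At a difference of 1, 24 unchanged genes were also called. The simulation gave every gene the same dispersion and no difference between animals, so these rates do not hold for genes of wider spread. It also changed 200 of 4735 genes, a larger share than the 0.0158% called at day 0. An adjusted threshold is easier to pass where more genes change, so these rates may not hold for this comparison. The SE of this day 0 difference was 0.51 for IL18R1 and 0.37 for CASP1. Other sets of animals gave 1 call each. Within day 0 pens that held both labels, with that pen as a covariate, IL1RN was higher in BRD cattle at day 0 by 0.58 (adjusted p = 0.0872). Within AAC animals alone, NLRP3 was higher in BRD cattle at day 28 by 0.73 (adjusted p = 0.0780).

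The change from day 0 was then compared between BRD and healthy cattle. By edgeR 0 of 40 differences were called, with 2 of 40 (both of IL18, at days 13 and 45) at an unadjusted p below 0.05, and by DESeq2 0 were called. Among all genes 0% were called at day 13, 0% at day 28, 0% at day 45 and 0% at day 60. For IL1R2 the difference was -0.20 at day 13 (95% interval -1.04 to 0.64) and 0.03 at day 60 (-0.81 to 0.87). For IL1RN it was between -0.25 and -0.12, and its 4 intervals reached from -0.58 to 0.21.

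Levels of all 10 genes overlapped between the 3 supplement programs at every day. The paper does not take expression differences at day 0 as effects of the supplements, although COMBO steers had been drenched before shipment. The day 0 values below therefore describe the groups at enrollment. At day 0, IL1R2 had a median of 8.57 CPM in AAC, 6.51 CPM in COMBO and 7.67 CPM in INR cattle. IL1B at day 45 had medians of 159.9, 207.3 and 138.1 CPM. None of the 150 differences between programs was called by edgeR, DESeq2 or limma-voom, with 2 of 150 at an unadjusted p below 0.05 in edgeR: IL18 in AAC minus INR at day 28 (-0.83, 95% interval -1.54 to -0.11, adjusted p = 0.698) and IL18RAP in AAC minus INR at day 45 (0.61, 0.01 to 1.20, adjusted p = 0.880). The IL18 value of INR cattle at day 28 included healthy animal 7 at 64.5 CPM. For AAC minus COMBO, 0.565% of all genes were called at day 0, 0.929% at day 13, 0.0317% at day 28, 0% at day 45 and 0% at day 60. For COMBO minus INR, 0% were called at day 0, 0% at day 13, 0% at day 28, 0% at day 45 and 0.00528% at day 60. For AAC minus INR, 0% were called at day 0, 0.0422% at day 13, 0.0106% at day 28, 0% at day 45 and 0% at day 60. IL1R1 was higher in AAC than in COMBO cattle at day 0 by 0.53 (95% interval -0.00 to 1.06, adjusted p = 0.483). Without animal 16 that difference was 0.91 (adjusted p = 0.0523), and among BRD cattle alone it was 1.19 (adjusted p = 0.0804). Both rest on few animals. Without animal 16, the BRD COMBO cattle were animals 18 (22.95 CPM) and 54 (31.74 CPM) alone, and the BRD cattle had 4 AAC and 3 COMBO animals. No pen held animals of 2 programs at day 0, so day 0 pen and program cannot be told apart in any of these comparisons. Per the study's methods, steers were later rotated between pens.

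The wider pathway was read from 41 further genes of the interleukin-1 family, its signalling chain and the inflammasomes, of which 32 passed the filter on low counts. Like the 10 genes, this list was chosen with earlier results of these data known. Its counts beside the shares of all genes are therefore a description and not a test. Those below the filter were IL1RL2, IL36A, IL36B, IL36G, IL36RN, IL37, IL1F10, NLRP6 and AIM2. In healthy cattle 1, 3, 0 and 0 of the 32 were called higher and 4, 8, 3 and 6 lower at days 13, 28, 45 and 60, against 6.11%, 10.76%, 4.36% and 5.83% of all genes higher and 4.84%, 10.22%, 4.19% and 5.81% lower. In BRD cattle 1, 2, 3 and 1 were called higher and 10, 13, 8 and 9 lower, against 9.08%, 9.78%, 11.77% and 9.45% of all genes higher and 8.35%, 10.27%, 10.74% and 10.17% lower. Of the genes with the smallest p in healthy cattle, TXNIP, which binds thioredoxin and NLRP3, fell at day 28 (-0.72, SE 0.12, adjusted p = 5.23e-06). GSDME, a pore-forming gasdermin, fell at day 60 (-0.97, SE 0.19, adjusted p = 0.000112). P2RX7, the ATP-gated channel upstream of NLRP3, fell at day 45 (-0.38, SE 0.10, adjusted p = 0.00606), and TRAF6, a signalling ligase downstream of IL1R1, at day 28 (-0.14, SE 0.04, adjusted p = 0.00689). In BRD cattle, P2RX7 fell at day 60 (-0.51, SE 0.09, adjusted p = 1.14e-05). NLRC4, another inflammasome sensor, fell at day 13 (-0.70, SE 0.14, adjusted p = 0.000205), TXNIP at day 28 (-0.54, SE 0.11, adjusted p = 0.000174), and PYCARD, the adaptor that joins NLRP3 to CASP1, at day 13 (-0.48, SE 0.10, adjusted p = 0.000414). The median over the 32 genes at day 28 was -0.09 in healthy and -0.18 in BRD cattle, against 0.01 over all tested genes in each.

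Between days 28 and 45, 13 of the 32 pathway genes were called higher and 4 lower, with a median of 0.10, against 13.65% of all genes higher and 14.6% lower. TRAF6 rose by 0.16 (SE 0.03, adjusted p = 9.48e-07) and TXNIP by 0.48 (SE 0.08, adjusted p = 4.92e-06), while IRAK1, a kinase of the receptor complex, fell (-0.17, adjusted p = 1.15e-05). SIGIRR, an inhibitory receptor of the family, fell in this interval (-0.19, adjusted p = 0.000674) and rose by 0.20 from day 45 to day 60 (adjusted p = 0.00393). In AAC minus COMBO at day 13, TRAF6 was higher by 0.18 (adjusted p = 0.0836) and SIGIRR lower in AAC cattle (-0.38, adjusted p = 0.0921). No pathway gene was called between BRD and healthy cattle at any day by edgeR, with 3, 1, 1, 0 and 0 of 32 at an unadjusted p below 0.05.

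Genes that varied most like each of the 10 over all libraries were found by Pearson's r of log2 CPM, a description in which libraries of an animal are not independent. IL1RN was most like TNFRSF1A (r = 0.905), a tumour necrosis factor receptor, and NFAM1 (0.896). IL1R2 was most like NFAM1 (0.801) and MAPK14 (0.7995), which encodes a p38 kinase, and IL18RAP was most like MAPK14 (0.833) and TGFA (0.818). IL1R1 was most like CPD (0.910) and IGF1R (0.879), NLRP3 most like FGR (0.817) and BACH1 (0.815), and IL1B most like OSCP1 (0.819) and STEAP4 (0.757). IL18 was most like CD274 (0.742), which encodes PD-L1, and TIAM2 (0.720), and IL1A most like BCL6 (0.599) and SBNO2 (0.580). The closest genes of IL18R1 (NCOA2, 0.549, and LYST, 0.543) and of CASP1 (FDXR, 0.320, and BCL2L2, 0.314) were the least alike. Among the 10 genes, IL1RN and IL1R2 had r = 0.685, IL1R2 and IL18RAP 0.670, IL1R1 and NLRP3 0.674, and IL1B and NLRP3 0.632. IL18 and IL1R2 had r = -0.20. IL18 was more like NLRP3 (0.503) than like its receptor genes IL18R1 (0.095) and IL18RAP (0.171).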

How the data were processed

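Per the study's methods, the authors trimmed paired reads (Trimmomatic 0.39), aligned them to ARS-UCD1.3 using HISAT2, and built gene counts from StringTie 2.2.0 transcripts, so the deposited raw counts derive from transcript coverage. Counts were filtered with filterByExpr, scaled by TMM and tested with edgeR 4.0.16 (quasi-likelihood F-test, common dispersion), with Benjamini-Hochberg adjustment over 18937 genes and calls at an FDR below 0.10. Labels and supplements were compared in a fit of 30 day, label and supplement means, and days in a fit with each animal as a block. The pairing comes from the animal: libraries of 1 animal deviated together (median correlation 0.371, above 0.1 in all 26 animals), against -0.010 between animals. Log2 CPM used a prior count of 2. SEs were derived from the F statistic and 95% intervals from the SEs by the normal approximation. Relations at day 0 used permutation tests with 100000 resamples, two-sided. The tests were tested on simulated data. Fits without 1 animal used the Wald form of the F statistic with fixed dispersions. DESeq2 1.42.0 and limma 3.58.1 were alternatives. All 10 genes are reported, with at most 4 called pathway genes per family of comparisons (smallest p) and the 2 genes most like each of the 10. The genes and lists were chosen with earlier results of these data known. Gene neighbours come from RefSeq annotation of ARS-UCD2.0, and no coordinates are given. Of the marker lists, CSF3R (neutrophil) and EPX and PRG2 (eosinophil) matched no symbol and were not used here, and 1 further gene is not reported here; none of these is in the sums.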

Additional observations from a re-analysis of the deposited data

Results flagged for a closer look

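A single library lay far from the rest of its supplement group and day in 15 of 100 groups of 7 or 8 AAC or COMBO libraries. Dixon's test was used, with the gap to the nearest library as a share of the group's range. Chance alone marks about 1 in 20 groups if values are normally distributed and groups independent. The CPM values were skewed, as for IL1R2 in COMBO cattle at day 0 (mean 22.8, median 6.51 CPM). The groups also share animals and libraries, so the 15 cannot be set against that rate. The INR groups were too large for this test. All 15 were the highest library of their group. COMBO animal 6 (healthy) was such a library for IL1R2 at day 0 (109.48 CPM, next 24.824), day 13 (10.569 CPM, next 5.7714) and day 45 (13.282 CPM, next 7.827), for IL18RAP at day 0 (67.189 CPM, next 29.304) and for IL18R1 at day 45 (23.75 CPM, next 13.075). AAC animal 21 (BRD) was one at day 28 for IL1RN (180.53 CPM, next 110.23), IL1R1 (115.26 CPM, next 76.103), IL1R2 (11.605 CPM, next 6.1939) and NLRP3 (62.902 CPM, next 40.229), and at day 60 for IL1A (1.4314 CPM, next 0.76944). The 4 values of animal 21 at day 28 came from 1 library and are not independent. The others were IL1B in AAC animal 34 at day 45 (331.67 CPM, next 224.58), IL18 in AAC animal 49 at day 60 (42.739 CPM, next 23.522), NLRP3 in COMBO animal 57 at day 13 (63.99 CPM, next 40.564), and CASP1 in COMBO animals 16 at day 13 (76.852 CPM, next 22.936) and 18 at day 28 (40.821 CPM, next 18.081). No cause was tested for any of them.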

How the results depend on the processing

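Over the 10 genes, 14 calls against day 0 were made in healthy and 12 in BRD cattle with each animal as a block, and without the replicate block 6 and 5 were made. The fit without the block also counted each supplement equally, so the lost pairing and this weighting were not told apart. Between days 28 and 45, the block gave 5 calls, and IL1A alone was lost without it (adjusted p = 0.145). The other settings (RLE size factors, DESeq2, filters on low counts, an FDR below 0.05, supplement-by-day terms and the like) gave 11 to 18 calls in healthy, 11 to 18 in BRD cattle and 4 to 7 between consecutive days. The 18, 18 and 7 came from summing IL18R1 with IL1RL1 and CASP1 with CASP4, which was chosen, like the Wald form, after the data were seen, and the 4 came from a minimum mean of 1 CPM, which removes IL1A. Without any 1 animal the ranges were 11 to 15, 11 to 13 and 5 to 6. The comparison of BRD with healthy cattle had 0 calls, but 1 within day 0 pens that held both labels (IL1RN at day 0) and 1 among AAC animals alone (NLRP3 at day 28). The supplement pairs had 0 calls, 0 to 1 without any 1 animal, the 1 being IL1R1 in AAC minus COMBO at day 0 without animal 16, and 1 among BRD cattle alone, for the same gene and contrast. Of 340 single results under the settings other than omission of an animal, 314 kept their call, 26 lost it and 0 changed sign, and of 806 under omission of an animal, 778 kept it, 28 lost it and 0 changed sign. The cause of these losses was not tested. IL1A, with a median of 28 counts, is the gene most limited by depth.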
